A study of Mus musculus with 4 samples.

Results

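The genes described here are 32 members of the unfolded protein response and of the integrated stress response, chosen by name out of 52636 genes counted in single cells of mouse kidney glomeruli. Each symbol matched exactly 1 row of the count tables. By role they fall into 14 chaperones and folding enzymes of the endoplasmic reticulum, 8 sensors, transducers and degradation genes, and 10 genes of the branch that runs through Atf4 and Ddit3. The droplet libraries, made with a 3' kit that counts unique molecular identifiers (UMIs, 1 per captured RNA molecule), came from 2 young and 2 aged glomerular preparations of untreated mice. Glomeruli were collected with magnetic beads given through the circulation and then digested to single cells. The labels do not say how old the mice were, of which sex, strain or genotype, or how many gave each library. Nothing in the labels says that the 2 libraries of an age group came from separate mice, so the p-values measure only the spread between these libraries, which may be technical.

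The unfolded protein response is the reaction of a cell to misfolded protein in the endoplasmic reticulum. Sensors in its membrane (Ern1, Eif2ak3 and Atf6) switch on transcription factors such as Xbp1, which raise chaperones and the genes that hand misfolded protein to the proteasome. Eif2ak3 also takes part in the integrated stress response, in which phosphorylation of a translation factor lowers protein synthesis and favours the making of Atf4. Atf4 in turn raises genes of amino acid supply and, with Ddit3, genes linked to growth arrest and cell death. Podocytes, the epithelial cells that wrap glomerular capillaries, make large amounts of membrane and matrix protein and are known to use these pathways.

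The files held 5532 and 9649 barcodes in young libraries 1 and 2, and 10621 and 7521 in aged libraries 1 and 2, with 18457791 to 42046542 UMIs per library. After filtering, cell classes were named from marker genes and are podocyte-like, endothelial-like and so on; the short names are used below. Young library 2 stood apart. It had the lowest median depth, 1258 UMIs per cell against 2715 to 3730 in the other libraries. In it 64.0% of the cells kept stayed unnamed for mixed markers, against 5.63% to 7.43% elsewhere. In the order young 1, young 2, aged 1 and aged 2, podocytes numbered 1667, 556, 956 and 633, and endothelial cells 2389, 1356, 5835 and 4113. Mesangial cells numbered 257, 167, 580 and 462, and parietal epithelial cells 34, 64, 55 and 40. Since the classes were named from these same markers, marker levels describe the classes and do not test the names. All 10 podocyte markers summed to 24281 to 25870 UMIs per 1000000 UMIs in podocytes and to at most 1916 in the 3 other glomerular classes. In parietal epithelial cells the 8 parietal markers summed to 2320 to 3692. Tubule markers summed to 405 to 10442 there, and smooth muscle and renin markers to 2127 to 3026. Pairs of libraries shared 9 to 31 cell barcodes, at most 0.346% of the smaller library.

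Promoters were searched for letters known from these pathways. RefSeq promoters of GRCm38.p6, from 250 bases before to 50 after the start, were at hand for 29 of the 32 genes; Manf, Hyou1 and Atf6 had no entry. Both strands were searched. The endoplasmic reticulum stress element, CCAAT and CCACG with a spacer of 9 bases, was found in 8 members, against 0.119% of all 32851 promoters. These were the chaperone genes Hspa5, Hsp90b1, Pdia6, Calr, Canx, Creld2 and Dnajc3 and the degradation gene Syvn1. Its second form, ATTGG and CCACG with 1 base between them, was found in Dnajb11 and Herpud1 and in 0.0365% of all promoters. The amino acid response letters TGATGNAA, to which Atf4 and its partners are known to bind, were found in Asns, Chac1, Trib3 and Vldlr of the Atf4-Ddit3 branch and in Herpud1, against 3.97% of all promoters. No member held the letters TGACGTGG, which 0.676% of all promoters did. No member held both forms of the stress element, and the matches in Herpud1 did not overlap each other. A match is a description of letters, not of a bound site.

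The stretches below, with the motif in capitals and written 5′ to 3′ on the strand of the gene, show the stress element in Creld2 and Herpud1, 2 of the 4 genes that held one and whose age difference differed between podocytes and endothelial cells (the others, Hspa5 and Dnajb11, are not printed). Pdia6 is a chaperone gene in which that gap was not called (0.25, SE 0.11, adjusted p = 0.204, edgeR). Herpud1 is also shown for its amino acid response letters, and Chac1 for the same letters in a gene of the Atf4-Ddit3 branch. Where the motif lies on the opposite strand, its reverse complement is what stands in capitals. Creld2 (chr15:88819500-88819558, plus strand, 126 to 108 bases before the start, opposite strand), Pdia6 (chr12:17266471-17266529, plus strand, 98 to 80 bases before the start), Herpud1 stress element (chr8:94386357-94386407, plus strand, 52 to 42 bases before the start), Herpud1 amino acid response letters (chr8:94386297-94386344, plus strand, 112 to 105 bases before the start, opposite strand) and Chac1 (chr2:119351029-119351076, plus strand, 193 to 186 bases before the start, opposite strand) are shown.
Creld2: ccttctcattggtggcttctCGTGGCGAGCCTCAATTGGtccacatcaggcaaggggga
Pdia6: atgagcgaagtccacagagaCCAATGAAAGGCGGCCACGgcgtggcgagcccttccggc
Herpud1 stress element: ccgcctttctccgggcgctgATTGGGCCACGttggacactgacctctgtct
Herpud1 amino acid response: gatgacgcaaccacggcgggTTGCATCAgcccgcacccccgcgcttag
Chac1: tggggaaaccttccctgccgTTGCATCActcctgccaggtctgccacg

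The map of levels by class gives each gene in 11 classes. Levels are CPM, the UMIs of a gene per 1000000 UMIs of the class in a library of at least 20 cells. Classes come from clusters of the same cells, so these are descriptions without a test, and macrophages and neutrophils rest on the aged libraries alone. Macrophages, parietal epithelial cells and podocytes had the highest mean for all 14 chaperones (6, 3 and 5 of them). Pdia6, a disulfide isomerase, ran at 595 to 810.1 CPM in podocytes, above its next class, macrophages, at 434 to 542, with no overlap of libraries. Hspa5, the main chaperone of the compartment, ranged over 1349 to 2444 in podocytes and 1409 to 2421 in endothelial cells. Its highest classes by mean were parietal epithelial cells (1554 to 4611) and macrophages (1579 to 2370), which overlapped. Sdf2l1, a chaperone cofactor, reached 226 to 342 in macrophages against 63.6 to 141 in monocytes and dendritic cells.

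**Figure D1:**
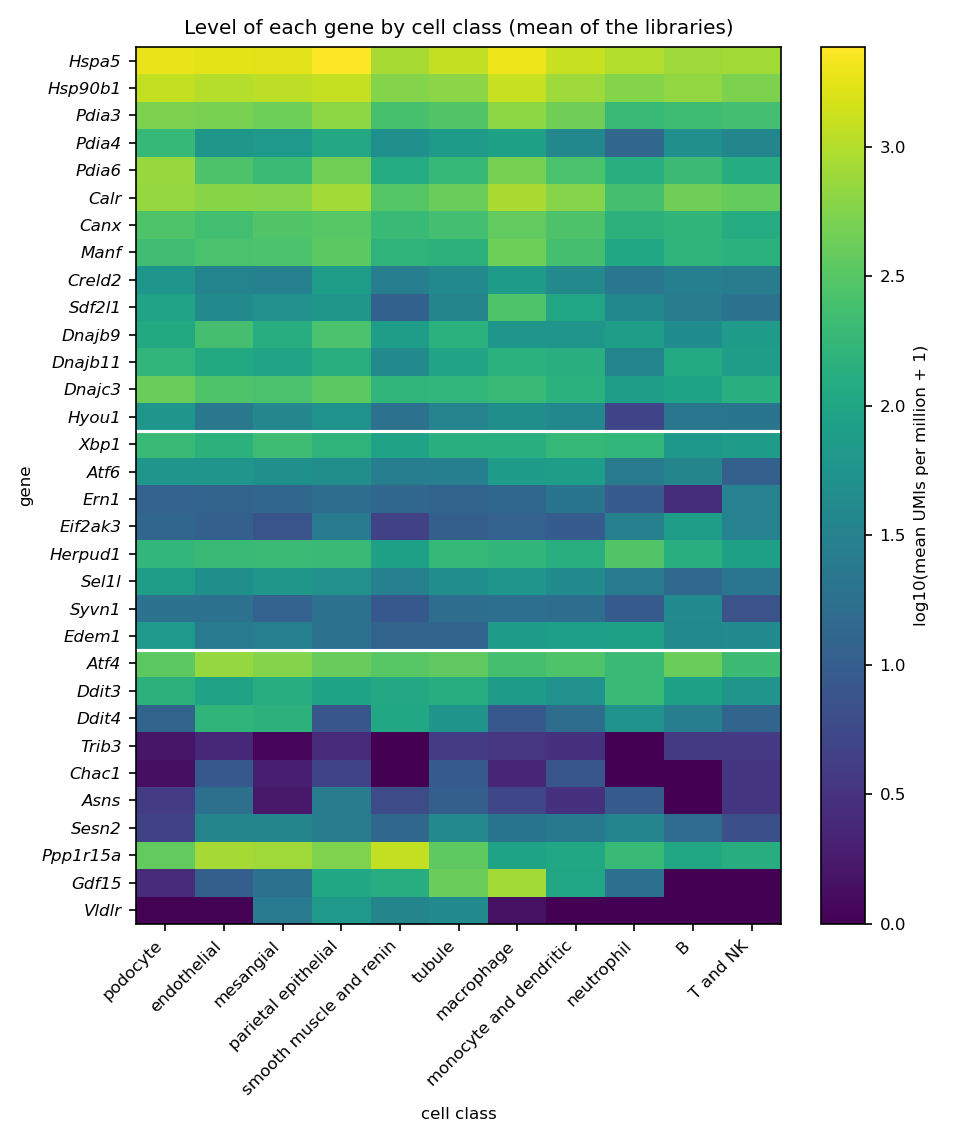
Mean level of each of the 32 genes in 11 cell classes, as log10 of CPM plus 1; rows are genes by role (chaperones, sensors and degradation, Atf4-Ddit3 branch from top to bottom) and columns are classes. The mean of Gdf15 ran from 0 in B and T cells to a mean of 810 in macrophages.

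Among the transducers, Eif2ak3, the kinase that starts the integrated stress response from the endoplasmic reticulum, was highest in B cells (54.2 to 91.7), clear of T and NK cells (14.3 to 47.5). Xbp1 was highest in mesangial cells (186 to 252) and podocytes (163 to 235), which overlapped. In the Atf4-Ddit3 branch, Atf4 itself was highest in endothelial cells, at 668 to 730.4, clear of mesangial cells at 537 to 630.4. Ddit4, an inhibitor of the growth kinase mTOR, had means of 161 in endothelial and 149 in mesangial cells and the lowest, 7.12, in parietal epithelial cells. Gdf15, a secreted stress hormone, reached 714 and 907 in macrophages, a class with enough cells in the aged libraries alone. Gdf15 was 0 in every library of B cells and of T and NK cells. Monocytes and dendritic cells, whose genes were not tested, held 2.77 and 3.03 CPM of it (young) and 138 and 253 CPM (aged).

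The age comparison asks which members differ between aged and young glomeruli within a class. In each class the UMIs of its cells were summed per library and tested with edgeR's quasi-likelihood test, and a gene was called at a Benjamini-Hochberg adjusted p under 0.05 over all genes of that class. Library values below are CPM after TMM scaling (a correction for RNA makeup), young libraries 1 and 2 first and then aged 1 and 2, ± is the SD over 2 libraries, and differences are log2 fold changes with their standard error (SE). A sum over cells cannot tell fewer cells with the RNA from less RNA in each cell. In podocytes 5 of the 29 members tested were called, all higher in aged libraries; 6.92% of all 10841 genes were called, 4.51% higher and 2.41% lower. In endothelial cells 6 of 31 were called, all higher, beside 5.76% of 13065 genes called, 3.83% higher and 1.93% lower. Without the filter on low counts no endothelial gene at all was called. In mesangial cells 2 of 29 were called, both higher, beside 4.8% of 10380 genes called, 3.05% higher and 1.74% lower. Parietal epithelial cells gave no call among 23 members tested, and 0% of the 4565 genes were called; at an unadjusted p under 0.05 there were 6 members and 412 genes, and DESeq2 called 11 genes and no member. Without young library 2, which stood apart, the median member difference was 0.08 for podocytes, 0.18 for endothelial, 0.05 for mesangial and 0.63 for parietal cells. The medians over all genes were then 0.005, 0.02, 0.01 and 0.07. With mixed clusters and cells kept instead, member calls were 0, 6, 2 and 1 in the same order of classes. Over all genes the calls were then 26 of 11132, 823 of 13225, 638 of 11853 and 18 of 6396, so the totals moved as well.

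The 8 genes called in at least 1 class lie, on GRCm38 with GENCODE vM21 gene models, at chr9:106838312-106891979 (Manf, minus strand), chr11:5520659-5525893 (Xbp1, plus), chr8:94386438-94395377 (Herpud1, plus), chr10:127290774-127296288 (Ddit3, plus), chr10:59949669-59951834 (Ddit4, minus), chr6:7675169-7693254 (Asns, minus), chr7:45522916-45526268 (Ppp1r15a, minus) and chr8:70629393-70632456 (Gdf15, minus). Some models overlap others. Manf shares its strand with Rbm15b, and Ddit3 with a second record of the same symbol. On the opposite strand Ddit3 meets Mars, Ppp1r15a meets Tulp2 and Herpud1 meets Gm15890. Since the strand setting of the counting is not given in the sources used here, reads of such pairs may not be told apart.

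**Figure D2:**
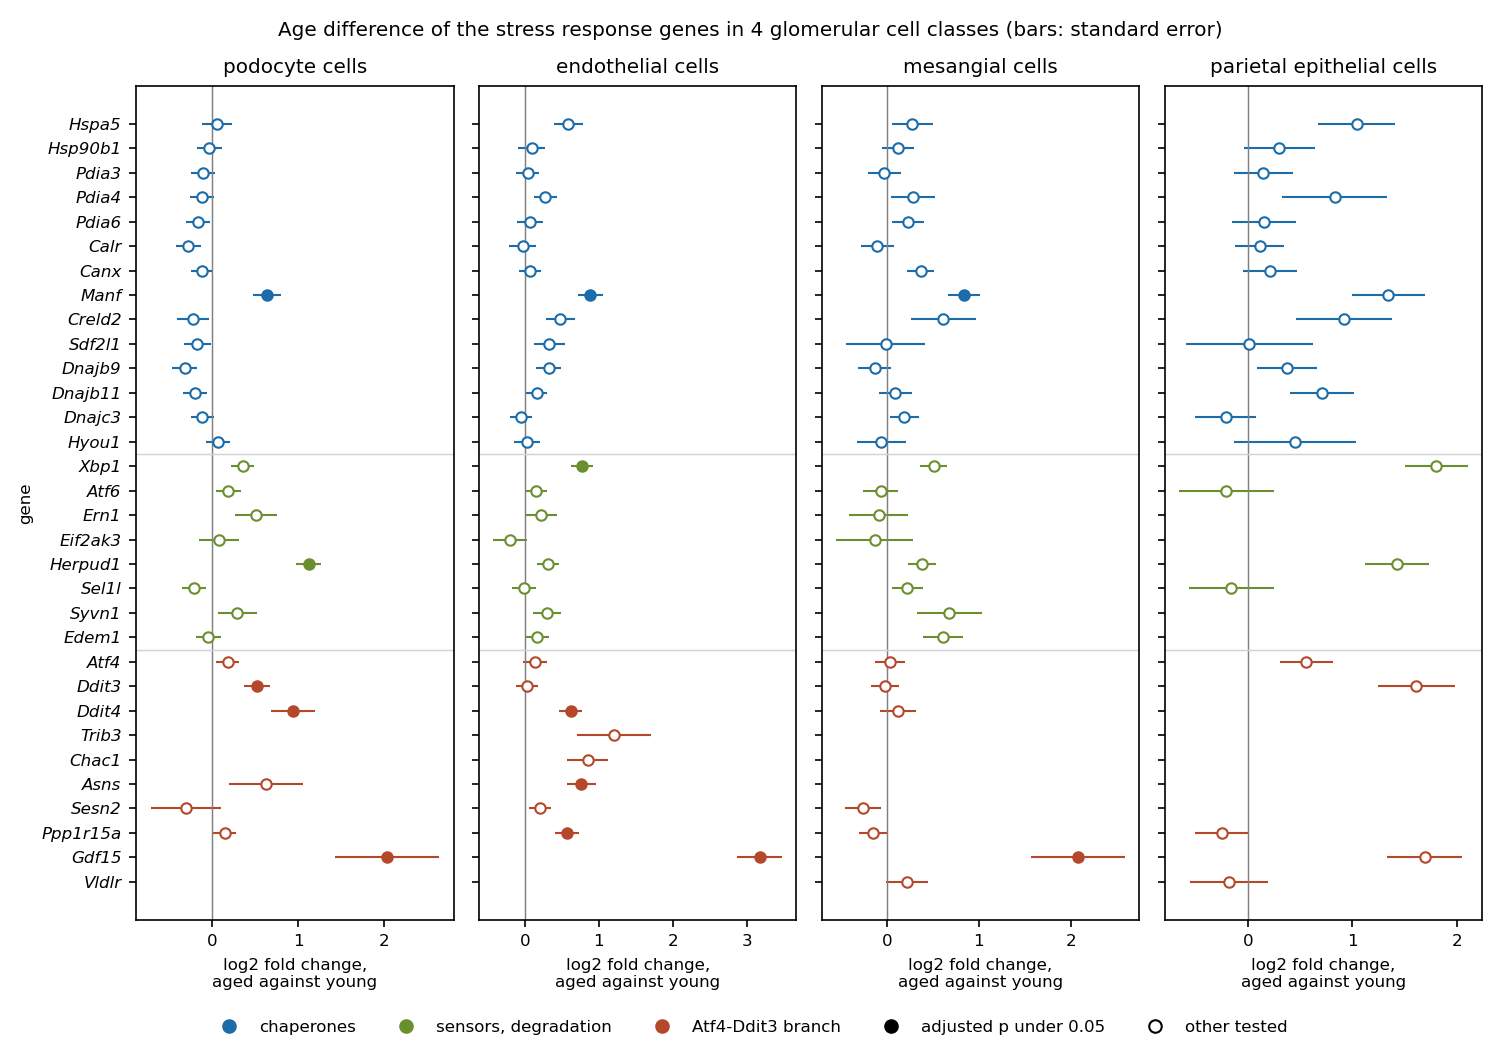
Age difference of each gene tested, as log2 fold change of aged against young with its standard error, in 4 panels for the 4 glomerular classes (the panels differ in x range); filled points have an adjusted p under 0.05. All filled points lie to the right of 0, and Manf and Gdf15 are filled in podocytes, endothelial cells and mesangial cells.

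Of the 14 chaperones, Manf alone was called, and it was called in 3 classes. Manf is a small secreted protein of the endoplasmic reticulum that binds Hspa5. In endothelial cells it stood at 188 and 176 CPM young and at 286 and 389 CPM aged. Both aged libraries were above both young ones, with a log2 fold change of 0.89 (SE 0.17, adjusted p = 0.00275). Without aged library 2 the endothelial difference was 0.65 (adjusted p = 0.0544, edgeR). In mesangial cells the libraries held 202 and 187 young and 301 and 395 aged, again without overlap, for a difference of 0.84 (SE 0.17, adjusted p = 0.022). Leaving out young library 1 or 2 took the mesangial call away (adjusted p = 0.223 and 0.249, edgeR). In podocytes the values were 211 and 142 young and 198 and 357 aged. These podocyte libraries overlapped, since aged library 1 lay below young library 1, and the difference was 0.64 (SE 0.16, adjusted p = 0.00669). Without aged library 2 it fell to 0.16 (adjusted p = 0.969, edgeR) and the call was lost.

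No other chaperone passed the test. Hspa5 was at 2119.6 and 1611 young and 1358 and 2536 aged in podocytes, where aged library 1 was the lowest of the 4 and aged library 2 the highest; the difference was 0.06 (SE 0.17). In endothelial cells Hspa5 was at 1575 and 1302 young and 1789.7 and 2533 aged, without overlap, at a difference of 0.59 (SE 0.20, adjusted p = 0.0993, edgeR) that did not pass. Without young library 1 it did (0.74, adjusted p = 0.00107), and DESeq2 also called it (0.59, adjusted p = 0.0304). Hsp90b1, the Hsp90 of the compartment, differed by -0.03 (SE 0.15) in podocytes and by 0.09 (SE 0.18) in endothelial cells, with overlapping libraries in both. Calr, which with Canx folds glycoproteins while holding calcium, stood at 809 and 747 young and 526 and 756 aged in podocytes (difference -0.28, SE 0.15, adjusted p = 0.315). The remaining chaperones ran from -0.32 (Dnajb9) to 0.07 (Hyou1) in podocytes. In other classes, too, differences moved when a library was left out. Endothelial Creld2 went from 0.48 to 0.69 without young library 1 and to 0.76 without aged library 1. Endothelial Dnajb9 went from 0.32 to 0.54 without young library 1, and endothelial Sdf2l1 from 0.33 to 0.67 without aged library 1. Mesangial Sdf2l1 went from -0.01 to -1.13 without aged library 2. Without young library 2, however, 3 podocyte chaperones were called lower in aged cells: Calr (-0.34, adjusted p = 0.0338, edgeR), Dnajb9 (-0.52, adjusted p = 0.000137) and Creld2 (-0.52, adjusted p = 0.000703). Creld2 was also called lower without aged library 2 (-0.78, adjusted p = 0.0365, edgeR).

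As a group, 3 of 14 chaperones had a positive difference in podocytes, with a median of -0.12, beside 50.2% of all genes and a median of 0.00078. Endothelial cells had 12 of 14 positive (median 0.13, beside 49.1% of all genes), mesangial cells 9 of 14 (median 0.16, beside 49.1%) and parietal epithelial cells 13 of 14 (median 0.34, beside 48.5%). Both aged libraries were above both young ones for 1 chaperone in podocytes, 3 in endothelial cells, 2 in mesangial cells and 5 in parietal epithelial cells, and below for none. Over all genes, in the same order, 23.3%, 24.2%, 26.1% and 18.9% lay above and 22.9%, 24.1%, 27.1% and 21.6% below.

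The 2 aged libraries differed from each other in the chaperones. In each of the 4 glomerular classes, all 14 chaperones were higher in aged library 2 than in aged library 1, whereas 50.5%, 49.3%, 50.9% and 49.3% of all genes tested were. On the log2 scale their median ratio of aged library 2 to aged library 1 was 0.41 in podocytes and 0.42 in endothelial cells, 0.40 in the mesangial and 0.63 in the parietal class, against 0.0022, -0.0044, 0.0094 and -0.0068 for all genes. For the Atf4-Ddit3 branch the same ratio was 0.02, -0.12, -0.16 and 0.38. Cytosolic heat shock genes moved with the chaperones. All 13 were higher in aged library 2 in podocytes, endothelial and mesangial cells (median log2 ratios 0.93, 0.69 and 0.75), and 10 of 13 were in parietal epithelial cells (0.65). In podocytes these 13 genes summed to 14649 and 12874 CPM young, 14807 CPM in aged library 1 and 27326 CPM in aged library 2. Their part in the chaperone values of aged library 2 was not tested.

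**Figure D3:**
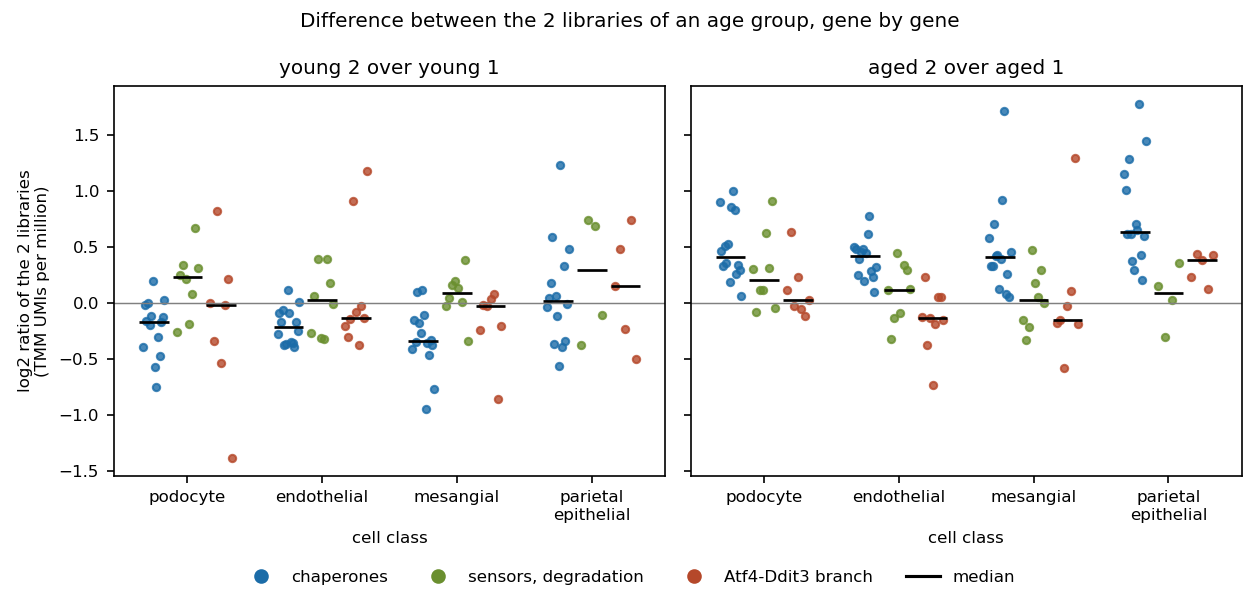
Log2 ratio of the 2 libraries of an age group for each gene, young on the left and aged on the right, by cell class and role; black lines are medians. All 14 chaperone points lie above 0 on the right in each of the 4 classes, and on the left 3, 2, 2 and 7 of 14 do.

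Among the sensors, transducers and degradation genes, Herpud1 and Xbp1 were the members called. Herpud1 encodes a membrane protein that helps assemble the degradation complex of the endoplasmic reticulum. In podocytes it stood at 118 and 104 CPM young and at 192 and 295 CPM aged. The groups did not overlap and the log2 fold change was 1.12 (SE 0.15, adjusted p = 6.05e-08), a call that held when any 1 library was left out. With mixed clusters and cells kept in the class, which returns most of young library 2, it was 0.99 (adjusted p = 0.19, edgeR). Herpud1 was also above in both aged libraries in endothelial cells (198 and 158 young, 228 and 214 aged) and mesangial cells (168 and 184 young, 215 and 243 aged). Those differences, 0.31 (SE 0.15) and 0.38 (SE 0.15), were not called (adjusted p = 0.287 and 0.176, edgeR).

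Xbp1, the transcription factor made active by Ern1, was called in endothelial cells, where the young libraries held 123 and 102 CPM and the aged ones 185 and 200.0. The groups did not overlap, and the difference of 0.78 (SE 0.15, adjusted p = 0.00307) kept its call when any 1 library was left out. In mesangial cells (182 and 178 young, 270.5 and 243 aged) it was 0.51 (SE 0.15, adjusted p = 0.0763, edgeR), and without aged library 2 it was called at 0.59 (adjusted p = 0.0368). In podocytes (187 and 157 young, 198 and 244 aged) it was 0.35 (SE 0.14, adjusted p = 0.117, edgeR), called without young library 1 at 0.50 (adjusted p = 0.00747). A 3' count does not tell the spliced from the unspliced form of Xbp1.

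The sensors themselves were not called in any class. Atf6, the sensor that is cut free as a transcription factor, differed by 0.19 (SE 0.14) in podocytes and 0.15 (SE 0.15) in endothelial cells. Sel1l, the scaffold of the degradation ligase, stood at 81.6 and 85.9 young and 64.4 and 79.8 aged in podocytes, with both aged libraries below (difference -0.22, SE 0.14), and at 56.7 and 56.9 young and 65.1 and 67.4 aged in mesangial cells, with both above (0.22, SE 0.17). Neither passed the test. Edem1, which picks out misfolded glycoproteins, held 26.1 and 20.5 young and 36.1 and 36.0 aged in mesangial cells (0.61, SE 0.22, adjusted p = 0.142, edgeR). Ern1, Eif2ak3 and Syvn1, the ligase itself, had differences of 0.51, 0.08 and 0.29 in podocytes with standard errors of 0.23 to 0.24. Over the 8 genes of this group the median difference was 0.24 (podocytes), 0.20 (endothelial cells) and 0.30 (mesangial cells).

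In the Atf4-Ddit3 branch, Gdf15 had the highest difference of all members in podocytes, endothelial and mesangial cells. Endothelial cells held 1.27 and 2.86 CPM young and 18.4 and 16.5 CPM aged, without overlap. That is a log2 fold change of 3.18 (SE 0.30, adjusted p = 5.19e-06), from 8 and 12 young and 271 and 241 aged UMIs, and the call held when any 1 library was left out. Mesangial cells held 8.48 and 4.67 young and 16.6 and 40.6 aged, without overlap (2.08, SE 0.51, adjusted p = 0.0464). The mesangial call was lost without young library 1, young library 2 or aged library 2 (adjusted p = 0.219, 0.251 and 0.083, edgeR), and without aged library 2 the difference was 1.27. In podocytes, at 0.829 and 0.317 CPM young and 2.79 and 2.83 aged, 7 young and 28 aged UMIs made up the whole signal. Their ratio per class UMI was 4.05 (exact 95% interval 1.73 to 10.99, counting error only), the fitted difference 2.04 (SE 0.60, adjusted p = 0.0261), and the call was lost on leaving out any 1 library (adjusted p = 0.0828 to 0.386, edgeR).

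Macrophage markers moved with Gdf15 in endothelial cells. All 8 of them were detected there, and they summed to 67.0 and 66.7 CPM young and to 184 and 139 CPM aged, against a mean of 16775 in macrophages, where Gdf15 had a mean of 810. In mesangial cells the same markers summed to 539 and 562 young and 645 and 501 aged, and in podocytes to 7.41 and 10.5 young and 12.5 and 16.3 aged. Parietal epithelial markers moved with age in the mesangial sums. They stood at 355 and 311 CPM young and 1958 and 789 CPM aged, against a mean of 3084 in parietal epithelial cells, with 5 of 8 detected and Pax8, Pax2 and Dkk3 at 0. In endothelial cells they summed to 370 and 351 young and 661 and 421 aged, with 6 of 8 detected and Pax8 and Pax2 at 0. The part of these markers in the Gdf15 values, and in the mesangial Manf call, was not tested. Gdf15 was also the only member among the 2000 variable genes used to cluster cells. When members and listed genes were left out of the clustering, the endothelial and podocyte calls held and the mesangial one had an adjusted p = 0.0553 (edgeR) at a difference of 2.08.

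Ddit4 was called in 2 classes. Endothelial cells held 135 and 122 young and 223 and 171 aged, with no overlap, at a log2 fold change of 0.62 (SE 0.15, adjusted p = 0.0214); without aged library 1 it was 0.42 (adjusted p = 0.392, edgeR). Podocytes, where Ddit4 is scarce, held 5.94 and 10.5 young and 14.7 and 14.4 aged, at 0.94 (SE 0.25, adjusted p = 0.0108). This call was lost without young library 1 (0.47, adjusted p = 0.334, edgeR), without aged library 1 (0.91, adjusted p = 0.136) and without aged library 2 (0.94, adjusted p = 0.0996). With mixed clusters and cells kept the podocyte sign turned, to -0.09. Mesangial cells held 145 and 143 young and 189 and 126 aged, which overlapped.

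Ddit3, the transcription factor also known as CHOP, was called in podocytes, at 138 and 109 young and 140.4 and 217 aged. The lower aged library lay just above the higher young one, and the difference of 0.52 (SE 0.15, adjusted p = 0.019) fell to 0.18 without aged library 2 (adjusted p = 0.951, edgeR). In endothelial cells Ddit3 held 95.6 and 77.4 young and 81.5 and 95.3 aged, and mesangial cells held 129 and 127 young and 133 and 119 aged. The groups overlapped in both, with differences of 0.03 (SE 0.15) and -0.03 (SE 0.15).

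Asns and Ppp1r15a were called in endothelial cells, and for Asns no difference between classes passed the test. Asns makes asparagine and is a textbook target of Atf4; it stood at 14.2 and 10.95 young and 23.2 and 20.3 aged, without overlap (0.77, SE 0.19, adjusted p = 0.0207). Its call was lost without young library 2 or aged library 1 (adjusted p = 0.0908 and 0.0837, edgeR). Ppp1r15a encodes the subunit that brings a phosphatase to the translation factor and so ends the integrated stress response. It held 729 and 663 young and 1016 and 1055 aged, without overlap (0.57, SE 0.16, adjusted p = 0.0455). Without aged library 1 or 2 its call was lost (adjusted p = 0.271 and 0.289, edgeR). In mesangial cells Ppp1r15a lay lower in both aged libraries, at 819.8 and 866 young and 731 and 785 aged (-0.15, SE 0.15, adjusted p = 0.605, edgeR).

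Atf4 RNA itself was not called. Its libraries held 323 and 322 young and 351 and 381 aged in podocytes (0.18, SE 0.13) and 712 and 618 young and 765 and 703 aged in endothelial cells (0.14, SE 0.16). Atf4 is known to be set mainly by translation, which these counts do not measure. Sesn2, a stress-induced regulator of growth signalling, had 31.8 ± 0.493 young and 36.7 ± 0.887 aged in endothelial cells (0.21, SE 0.15), and in mesangial cells 36.9 ± 0.580 young and 30.8 ± 0.409 aged (-0.26, SE 0.20), neither of which was called. Chac1, which breaks down glutathione, and Trib3, an inhibitor of Ddit3 and of the kinase Akt, passed the count filter in endothelial cells and in no other of the 4 classes. Chac1 was at 5.54 and 5.24 young and 12.2 and 7.33 aged (0.85, SE 0.28, adjusted p = 0.0968, edgeR), and Trib3 at 0.633 and 1.19 young and 2.11 and 1.92 aged (1.21, SE 0.50, adjusted p = 0.196, edgeR). Vldlr, a lipoprotein receptor, was tested in mesangial and parietal epithelial cells (0.22, SE 0.23, and -0.18, SE 0.37). The branch's median difference over its tested genes was 0.52 for 7 podocyte genes, 0.62 for 9 endothelial and 0.04 for 7 mesangial ones. Genes left untested for low counts were few: 3 for podocytes, 1 for endothelial and 3 for mesangial cells, all of this branch, and 9 in parietal epithelial cells, with at most 17 UMIs in any library.

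**Figure D4:**
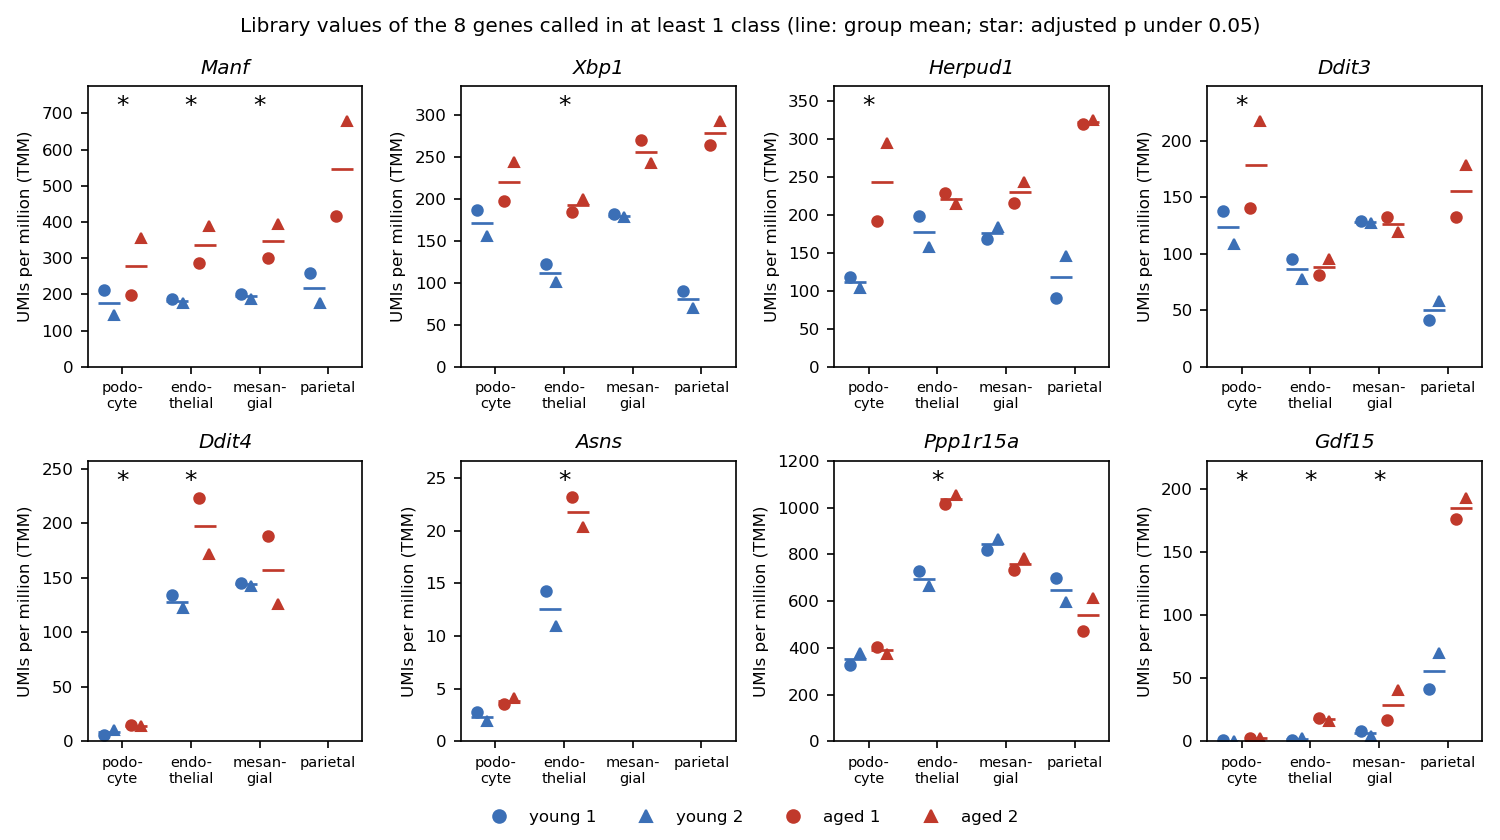
CPM after TMM scaling in each library (circles and triangles, young in blue and aged in red) of the 8 genes called in at least 1 class, with group means as lines and a star over classes with an adjusted p under 0.05; each panel has its own y axis from 0. Podocyte Herpud1 and endothelial Xbp1, Ppp1r15a and Gdf15 show aged libraries clear of the young ones, while podocyte Manf overlaps.

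Parietal epithelial cells, the flat cells that line the capsule of the glomerulus, had 34 to 64 cells per library and no call. Xbp1 stood at 90.6 and 69.9 young and 264 and 294 aged (1.80, SE 0.30, unadjusted p = 0.000579 in edgeR, adjusted p = 0.242). Herpud1 held 90.6 and 146 young and 319 and 324 aged (1.43, SE 0.31, adjusted p = 0.293, edgeR), Ddit3 41.8 and 58.3 young and 132 and 179 aged (1.61, SE 0.37, adjusted p = 0.293, edgeR). These 3 genes did not overlap between ages. Gdf15 (1.69, SE 0.36), Manf (1.34, SE 0.35) and Hspa5 (1.04, SE 0.37) were the other members with an unadjusted p under 0.05. Over the 23 members tested in this class the median difference was 0.37. It was 0.75 without aged library 1 and 0.06 without aged library 2. Xbp1, Herpud1 and Gdf15 stood at 1.95, 1.51 and 1.82 without aged library 1. Without aged library 2 they stood at 1.74, 1.42 and 1.63. Tubule markers were uneven over these libraries: they summed to 3000.6 and 495 CPM young and 10442 and 405 CPM aged, and their part was not tested. On simulated counts of 4153 genes with this class's depths, the test recovered 9.41% of 2-fold and 78.7% of 4-fold changes. The simulation gave all genes the same spread between libraries, which real genes do not share. The share of real differences that the test missed is therefore not known.

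Whether the age difference depended on the cell class was tested as an interaction for 6 pairs of classes, with the library as a block. It was called for 15 gene and pair combinations out of 183, in 11 members. With mixed clusters and cells kept edgeR called none of the differences between classes, DESeq2 called 2 of 183 and the fit on single clusters 1 of 90, in 3 pairs of classes. Podocytes against endothelial cells gave 10 calls among 31 members, beside 6.13% of 12968 genes. Of these, 6 were chaperones and all 6 had the larger difference in endothelial cells, a direction called for 3.59% of all genes. The size was 0.74 (SE 0.17, adjusted p = 0.00824) for Creld2, 0.65 (SE 0.12, adjusted p = 0.000783) for Dnajb9, 0.59 (SE 0.12, adjusted p = 0.0033) for Hspa5, 0.53 (SE 0.14, adjusted p = 0.0204) for Sdf2l1, 0.42 (SE 0.12, adjusted p = 0.0392) for Pdia4 and 0.39 (SE 0.12, adjusted p = 0.0483) for Dnajb11. Over the 14 chaperones, 13 had the larger difference in endothelial cells, with a median gap of 0.29, beside 52.2% of all genes and a median of 0.02. Larger is read with the sign in all these comparisons, so it need not mean the stronger change. In podocytes 3 of the 14 chaperones had a positive difference, in endothelial cells 12. Dnajb11, for example, stood at -0.20 in podocytes and 0.16 in endothelial cells. Dnajb9, a cofactor of Hspa5 that restrains Ern1, stood at 145 and 104 young and 92.1 and 110.1 aged in podocytes, and at 250.1 and 190.5 young and 249 and 303 aged in endothelial cells. Creld2, a folding protein of the same compartment, held 79.7 and 47.2 young and 37.7 and 75.3 aged in podocytes, and 30.4 and 23.8 young and 30.2 and 46.3 aged in endothelial cells. The libraries of both genes overlapped between ages in both classes.

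Xbp1 and Ppp1r15a also differed more with age in endothelial cells than in podocytes (gaps of 0.45, SE 0.12, adjusted p = 0.0202 and 0.45, SE 0.12, adjusted p = 0.022, edgeR). Herpud1 and Ddit3 went the other way, with the larger difference in podocytes: -0.77 (SE 0.16, adjusted p = 0.00261) and -0.45 (SE 0.13, adjusted p = 0.0415), a direction called for 2.54% of all genes. Against mesangial cells, podocytes had the larger difference in Herpud1 (-0.73, SE 0.18, adjusted p = 0.00276) and Ddit4 (-0.83, SE 0.26, adjusted p = 0.0325) and the smaller one in Creld2 (0.81, SE 0.26, adjusted p = 0.0406), beside 4.94% of all genes called in that pair, 2.63% with the larger difference in mesangial cells and 2.31% in podocytes. Xbp1 differed more in parietal epithelial cells than in podocytes (1.56, SE 0.35, adjusted p = 0.0349), where 0.492% of genes were called (0.167% larger in parietal epithelial cells, 0.325% in podocytes). Ppp1r15a differed less in mesangial than in endothelial cells (-0.67, SE 0.16, adjusted p = 0.0277), where 2.17% were called (1.25% larger in mesangial, 0.917% in endothelial cells). No member was called between parietal epithelial and endothelial cells, where 0.109% of genes were (0.0587% larger in the former, 0.0503% in the latter). None was called between parietal epithelial and mesangial cells either, where 0.0565% were (0.0113% and 0.0452%). Of the 15 calls, 3 held without young library 1, 5 without young library 2, 8 without aged library 1 and 9 without aged library 2. Dnajb9 in podocytes against endothelial cells held without each of them in turn, but not with mixed clusters and cells kept (0.70, adjusted p = 0.476, edgeR), with cells named one by one (0.67, adjusted p = 0.176) or in single clusters (0.42, adjusted p = 0.132).

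**Figure D5:**
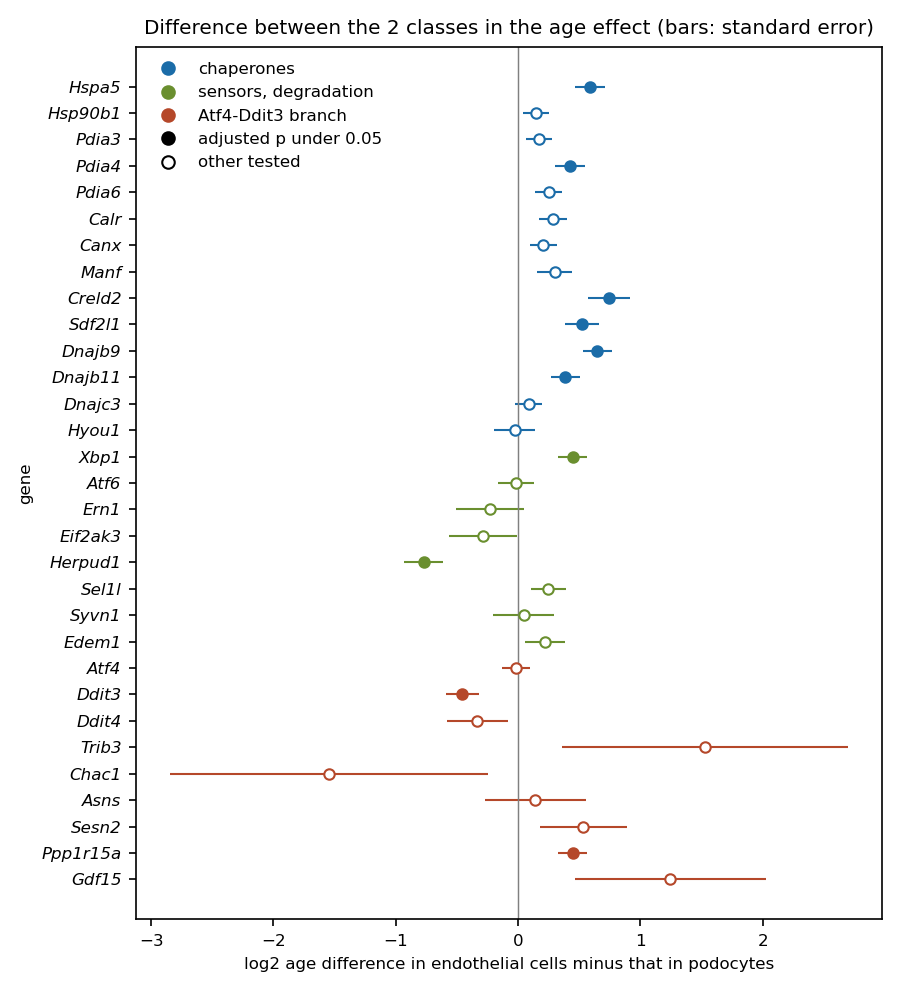
Age difference (log2) in endothelial cells minus that in podocytes for 31 genes, with standard errors; filled points have an adjusted p under 0.05 for the gap. Of the chaperones 13 of 14 lie to the right of 0, and Herpud1 and Ddit3 are filled to the left.

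Clusters within a class did not all follow the class. Podocytes held a cluster led by Gas1 and one led by Nphs1. In the Gas1 cluster Herpud1 stood at 135 and 119 CPM young and 213 and 308 aged (here without TMM scaling), with no overlap. In the Nphs1 cluster it was lower in every library, at 83.4 and 68.5 young and 81.5 and 142 aged, and overlapped. By library, in the order above, 782, 179, 279 and 166 podocytes sat in the Nphs1 cluster and 885, 377, 677 and 467 in the Gas1 cluster. Within the Gas1 cluster alone, fitted as an alternative, Herpud1 kept its call. Endothelial cells fell into 8 clusters with enough cells. Manf, Xbp1, Ppp1r15a, Gdf15 and Hspa5 each had both aged libraries above both young ones in 7 of the 8. Ddit4 did so in 5, among them a cluster led by Tspan8, at 36.4 and 39.3 young and 154 and 110.1 aged. Xbp1 and Ddit4 each had both aged libraries below both young ones in 1 cluster. The clusters are parts of the same libraries and class sums, so these counts are no separate support. The share of all genes was not counted by cluster. The endothelial cluster led by Sele numbered 245, 141, 2155 and 1039 cells by library. In the 1 endothelial cluster that was refitted, led by Ptpru, 1 member was called, Manf (0.76, adjusted p = 0.00482, edgeR). Of the members called in the whole class, 5 were tested in that cluster, and Gdf15 was not among them. Mesangial cells of the ages sat in different clusters: before mixed cells were left out, one led by Cxcl13 numbered 24, 18, 675 and 544 by library and one led by Gucy1a3 378, 237, 37 and 16, so age and cluster cannot be told apart there.

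Other genes of the pathways were read from lists of non-members. Among 17 further transcription factors and kinases of the integrated stress response, 5 were called higher and none lower in podocytes. The 3 with the smallest p were Cebpb, a partner of Atf4 and Ddit3 (496 and 576 young, 1345 and 1207 aged, difference 1.25, SE 0.14, adjusted p = 1.51e-09), Nupr1, a stress-induced chromatin protein (0.99, SE 0.17, adjusted p = 1.43e-05), and Atf3 (0.76, SE 0.15, adjusted p = 0.00037). In endothelial cells 3 of the 17 were called higher: Cebpb (1.06, SE 0.17), Nfe2l2, the regulator of antioxidant genes (0.72, SE 0.15), and Nupr1 (0.54, SE 0.14). In mesangial cells 4 were higher, among them Nupr1 (1.00, SE 0.17), Creb3l1, a transcription factor anchored in the endoplasmic reticulum (1.95, SE 0.40), and Cebpb (0.92, SE 0.19), and Atf3 was lower (-0.81, SE 0.18). Cebpb kept its podocyte and endothelial calls when any 1 library was left out. Nupr1 lost the podocyte call without aged library 1 (0.74, adjusted p = 0.0623, edgeR) and the endothelial call without aged library 1 or 2 (adjusted p = 0.204 and 0.0638). Atf3 lost its podocyte call without aged library 2 (0.71, adjusted p = 0.0878, edgeR), and Nfe2l2 its endothelial call without aged library 1 (0.67, adjusted p = 0.0758). The mesangial calls of Nupr1, Creb3l1, Cebpb and Atf3 were each lost without young library 1 or 2 (adjusted p = 0.147 to 0.378, edgeR), and that of Atf3 also without aged library 1 (-0.61, adjusted p = 0.0534).

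Of 32 amino acid genes induced by Atf4, 19 were tested in podocytes and 1 was called, the cysteinyl-tRNA synthetase Cars (4.83 and 4.12 young, 10.8 and 9.57 aged, 1.15, SE 0.29, adjusted p = 0.00668, edgeR), and none of 25 in endothelial or 22 in mesangial cells. The Cars call was lost without aged library 1 (1.06, adjusted p = 0.207, edgeR) or 2 (1.23, adjusted p = 0.0531), and with DESeq2. Of 22 further folding genes, none was called in podocytes; Fkbp14, a prolyl isomerase, rose and Pdia5, a disulfide isomerase, fell in endothelial cells (0.96, SE 0.26 and -0.63, SE 0.18), and Fkbp14 rose in mesangial cells (1.93, SE 0.42). Endothelial Fkbp14 was not called without young library 1 (0.87, adjusted p = 0.0609, edgeR) or aged library 1 (0.55, adjusted p = 0.366). Endothelial Pdia5 was not called without young library 1 (-0.23, adjusted p = 0.56, edgeR) or aged library 2 (-0.56, adjusted p = 0.0852), nor mesangial Fkbp14 without young library 1 or 2 (adjusted p = 0.262 and 0.146). Among 30 translocation and vesicle genes, Ostc and Kdelr2 fell in podocytes (-0.43, SE 0.13 and -0.44, SE 0.14) and Sec24d rose in mesangial cells (0.94, SE 0.22). Ostc and Kdelr2 were each called in 5 of 15 alternatives. Ostc was lost without young library 1 (-0.22, adjusted p = 0.231, edgeR) and without aged library 1 or 2 (adjusted p = 0.685 and 0.462). Kdelr2 was lost without young library 2 (-0.29, adjusted p = 0.105, edgeR) and without aged library 1 or 2 (adjusted p = 0.588 and 0.511). Sec24d was lost without young library 1, young library 2 or aged library 1 (adjusted p = 0.272, 0.168 and 0.0556, edgeR). Of 20 further degradation genes 19 were tested in each of these 3 classes and none was called.

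Heat shock and dissociation genes were read beside the members, since digestion of tissue is known to raise them. Of 13 cytosolic heat shock genes, 10 were called higher in aged podocytes, with Dnajb1 (1.38, SE 0.14), Hsph1 (1.03, SE 0.16) and Hspd1 (1.00, SE 0.16) first by p. In endothelial cells 5 were, with Hspe1 (320.3 ± 68.5 CPM young and 737 ± 384 aged), Hspd1 (1.01, SE 0.22) and Hspa4l (1.45, SE 0.37) first by p, and in mesangial cells none. Without aged library 2, 1 of the 10 podocyte calls (Dnajb1) and none of the 5 endothelial calls were left. Of 15 early genes induced by dissociation, Ier3 (0.58, SE 0.15) and Atf3 rose and Dusp1 (-0.82, SE 0.14) fell in podocytes. In endothelial cells Dusp1 (1.18, SE 0.18), Klf6 (0.87, SE 0.16) and Ier3 (0.92, SE 0.18) rose, and in mesangial cells 5 fell, led by Egr1 (-1.36, SE 0.21), Btg2 (-1.24, SE 0.22) and Atf3. All 5 mesangial calls (Egr1, Btg2, Atf3, Jun and Nr4a1) were lost without young library 1 or 2 (adjusted p = 0.057 to 0.391, edgeR), and those of Atf3, Jun and Nr4a1 also without aged library 1 (adjusted p = 0.0534, 0.0763 and 0.0584). Podocyte Ier3 was lost without aged library 1 (0.42, adjusted p = 0.618, edgeR) or 2 (0.72, adjusted p = 0.0621), and podocyte Dusp1 without aged library 1 (-0.75, adjusted p = 0.0652). Endothelial Ier3 was lost without aged library 1 (0.86, adjusted p = 0.0837, edgeR). In parietal epithelial cells none of either list was called. There 2 of the 15 dissociation genes had a positive difference, with a median of -1.05 and both aged libraries below both young ones for 10, and their sums were 21022 and 24946 CPM young and 10014 and 15907 CPM aged. Of the 13 heat shock genes 11 were positive in that class, with a median of 0.52. Their part in the differences of the members was not tested.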

How the data were processed

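The deposited matrices held raw UMI counts per gene and barcode, not normalized, 1 matrix per library; the authors' values were checked to be whole numbers, with no barcode under 500 UMIs. Per the labels' protocols the reads went through Cell Ranger 3.1.0 to GRCm38, whereas the file headers and the submitters' processing notes name Cell Ranger 6.0.1, and which made the counts was not settled. The members and all gene lists were chosen with earlier results of these data known. Barcodes with at least 500 genes and at most 20% mitochondrial UMIs were kept (29876); doublets were scored per library with Scrublet in scanpy 1.11.5, and since its automatic threshold marked 0.449%, the highest scores were removed at 0.8% per 1000 barcodes (1876, 6.28%). Cells were clustered with leidenalg 0.10.2 at resolution 1 (2000 variable genes, 30 components, 15 neighbours), which gave 27 clusters, 23 of them named.

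A cluster took the class with the highest marker level if that was at least 0.35 of the best cluster's with 3 markers detected, and stayed unnamed where an unrelated class reached 0.25, as did single cells with at least 3 UMIs of 2 unrelated markers at that level; these thresholds were set after the clusters had been seen. UMIs were summed per class and library (at least 20 cells) and tested with edgeR 4.0.16 in R 4.3.3 (TMM, default count filter, age as the only term). The SE is the size of the log2 fold change over the square root of F. Named are all members called in a class or between classes, of those called in no class the up to 3 per role with the highest mean CPM, and of each other list up to 3 called genes per direction and class. Edem1, Chac1, Trib3, Ern1, Eif2ak3 and Syvn1 are given besides. On simulated data with podocyte, endothelial and mesangial depths, and the same spread for all genes of a class, 81.6%, 72.4% and 60% of 2-fold changes were recovered. Tried as alternatives were 15 other settings, with DESeq2 1.42.0, other scalings, filters, cell selections and left-out libraries among them. Intervals cover counting error only.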

Additional observations from a re-analysis of the deposited data

Results flagged for a closer look

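Age differences that differ between cell classes, by the test of the difference itself (edgeR with the library as a block, adjusted p under 0.05), were found for 11 of the 32 genes in 15 combinations of gene and class pair. Values are log2 differences, the second class minus the first. Of endothelial cells minus podocytes, the chaperone genes gave 0.74 for Creld2, 0.65 for Dnajb9, 0.59 for Hspa5, 0.53 for Sdf2l1, 0.42 for Pdia4 and 0.39 for Dnajb11. The same pair gave 0.45 for Xbp1, 0.45 for Ppp1r15a, -0.77 for Herpud1 and -0.45 for Ddit3. Mesangial cells minus podocytes gave -0.73 for Herpud1, -0.83 for Ddit4 and 0.81 for Creld2. Parietal epithelial cells minus podocytes gave 1.56 for Xbp1, and mesangial minus endothelial cells gave -0.67 for Ppp1r15a. Over all genes tested, 6.13%, 4.94%, 0.492% and 2.17% were called in these pairs, in the order given. The pairs of parietal epithelial with endothelial or mesangial cells had no member call, beside 0.109% and 0.0565% of all genes. With mixed clusters and cells kept edgeR called none of the differences between classes, DESeq2 called 2 of 183 and the fit on single clusters 1 of 90, in 3 pairs of classes.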

How the results depend on the processing

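Among single genes, 2116 values under an alternative kept their side of the threshold. Turns of sign between values that were not called are included in these. Of the others, 345 lost the call, 45 gained it and 2 turned sign where a call was involved. The 2 were Hspa4l in podocytes (-0.066 without aged library 2 and 1.17 without aged library 1) and Ddit4 in podocytes with mixed clusters and cells kept (-0.086). Member calls in podocytes, 5 in the report, were 1 with DESeq2, 3 with scaling to total UMIs, 0 with mixed clusters and cells kept, 1 with cells named one by one, and 2 to 8 when 1 library was left out. Over all podocyte genes the calls were 256, 26 and 302 with DESeq2, mixed cells kept and cells named one by one, and 295 to 1244 with a library left out. Endothelial member calls, 6 in the report, were 3 with total UMIs, 0 without the count filter, 1 in a single cluster and 5 to 9 with a library left out; all genes gave 0 without the filter, 188 in a single cluster and 522 to 988 with a library left out. Mesangial member calls, 2 in the report, were 1 with RLE factors, 1 with total UMIs, 1 at 1000 UMIs or more per barcode, 1 with clustering without members and listed genes and 0 to 3 with a library left out; all genes gave 1187 without the filter and 48 to 871 with a library left out. Parietal epithelial member calls, 0 in the report, were 1 with mixed cells kept, 7 with cells named one by one and 0 to 7 with a library left out; all genes gave 11 with DESeq2, 18, 239 and 0 to 243. Calls between classes, 15 in the report, were 2 with DESeq2, 9 with total UMIs, 0 with mixed cells kept, 1 in single clusters and 3 to 15 with a library left out. The cause of these shifts was not tested. With scaling to total UMIs the median of all genes was -0.13 in endothelial and -0.12 in mesangial cells, against -0.0071 and -0.0099 in the report. The calls higher and lower were then 356 and 437 in endothelial and 274 and 308 in mesangial cells. With the replicate block, member calls in podocytes, endothelial, mesangial and parietal epithelial cells were 5, 8, 3 and 6, calls over all genes reached 1145 (endothelial), 1060 (mesangial) and 200 (parietal epithelial), and calls between classes were 21; the labels give numbers only, and same-numbered libraries correlated at 0.031, 0.108, 0.064 and 0.460 after removal of group means, with 2 pairs. The single-cluster fit was not run for mesangial cells, where a library held fewer than 20 cells. Members under the count filter were not tested.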
